A study of Mus musculus with 15 samples.

Results

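Transcript levels of 10 genes of the NF-kB pathway were followed in N2a cells, a mouse neuroblastoma line, in which the endogenous Opa1 transcript was silenced and OPA1, the dynamin-like GTPase of the mitochondrial inner membrane, was supplied again as wild type or as a point mutant. The 10 genes were chosen by name, with earlier results of these data known. They are the subunits Rela, Relb, Nfkb1 and Nfkb2, the IkB genes Nfkbia, Nfkbib, Nfkbie and Nfkbiz, and the target genes Cxcl1 and Tnfaip3. The IkB genes are called inhibitors here, although Nfkbiz is an atypical one. All 10 were found among the 22507 genes of the deposited table, and all 10 were among the 13074 genes that passed the filter on low counts.

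Sequencing of RNA was carried out on day 3 after transfection in 5 groups of 3 libraries each. V465F cells received siRNA to Opa1 together with a plasmid for OPA1 carrying the V465F substitution, and V560F cells the same siRNA with a plasmid for OPA1 carrying V560F. WT OPA1 cells received the siRNA to Opa1 with a plasmid for unmutated OPA1, knockdown cells that siRNA with the control plasmid, and control cells the control siRNA with the control plasmid. The siRNA was used at 50 nM, all cells went through a co-transfection of siRNA and plasmid, and 4 of the 5 groups therefore share the siRNA to Opa1. The labels give neither the species of the OPA1 insert, nor its promoter, nor whether the 3 libraries of a group are 3 cultures. The p-values therefore rest on the scatter of these libraries alone, part or all of which could be technical.

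NF-kB proteins act as dimers of Rel family subunits that are held in the cytoplasm by IkB inhibitors. When a receptor or an internal stress activates the IkB kinase complex, the inhibitor is phosphorylated, marked with ubiquitin and degraded, and the dimer enters the nucleus. Among the genes it switches on are Nfkbia and Tnfaip3, which encode brakes on the same pathway, so that their transcripts are commonly read together with chemokine transcripts such as Cxcl1. In neurons the pathway is known for roles in survival and in synaptic plasticity.

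Promoter windows are shown first for 4 genes that went in different directions, so that the letters stand beside the values. The windows are from RefSeq (GRCm38.p6) and hold the 250 bases before and the 50 bases from each annotated start, 5′ to 3′ along the gene. Windows were found for 7 of the 10 genes. Nfkbiz, Nfkb1 and Relb had no matching entry. Capitals mark the motif GGGNNTTNCC, a form of the kB site, where it was found on either strand, and overlapping matches were counted separately. Nfkbia lies at chr12:55492598-55492897 on the minus strand, Cxcl1 at chr5:90890995-90891294 on the plus strand, Nfkbie at chr17:45555450-45555749 on the plus strand and Rela at chr19:5637291-5637590 on the plus strand.
Nfkbia: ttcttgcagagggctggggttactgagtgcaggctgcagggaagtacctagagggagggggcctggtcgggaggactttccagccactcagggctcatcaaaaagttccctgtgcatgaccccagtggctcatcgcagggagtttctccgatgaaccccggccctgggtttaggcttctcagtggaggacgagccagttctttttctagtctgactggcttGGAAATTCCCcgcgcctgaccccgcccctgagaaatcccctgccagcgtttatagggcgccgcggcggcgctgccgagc
Cxcl1: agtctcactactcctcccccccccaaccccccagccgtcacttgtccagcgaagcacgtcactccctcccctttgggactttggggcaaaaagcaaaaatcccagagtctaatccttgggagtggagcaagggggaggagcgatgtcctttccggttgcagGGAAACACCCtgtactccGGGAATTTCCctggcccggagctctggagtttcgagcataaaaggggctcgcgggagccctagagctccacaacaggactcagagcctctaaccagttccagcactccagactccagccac
Nfkbie: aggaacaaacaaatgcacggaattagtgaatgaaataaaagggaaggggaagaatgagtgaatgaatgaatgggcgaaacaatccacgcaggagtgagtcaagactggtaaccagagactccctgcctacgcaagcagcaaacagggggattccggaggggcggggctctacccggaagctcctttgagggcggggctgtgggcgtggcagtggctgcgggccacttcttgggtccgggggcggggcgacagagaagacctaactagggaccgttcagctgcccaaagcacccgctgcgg
Rela: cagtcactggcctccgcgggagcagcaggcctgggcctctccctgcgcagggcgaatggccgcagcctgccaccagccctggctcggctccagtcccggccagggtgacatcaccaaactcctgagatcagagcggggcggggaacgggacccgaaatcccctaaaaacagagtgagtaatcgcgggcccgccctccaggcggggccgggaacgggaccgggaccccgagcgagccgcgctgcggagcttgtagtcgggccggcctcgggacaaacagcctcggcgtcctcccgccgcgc
The motif was found in 4.79% of all 32851 mouse promoter windows of the same length. It was found for 4 of the 7 genes, namely Nfkbia, Cxcl1, Tnfaip3 and Nfkb2. With the annotated start counted as 0, the match in Nfkbia begins at position -29 and those in Cxcl1 at -89 and -71. Tnfaip3 held the motif at -12 in 1 of its 2 windows, and Nfkb2 in each of its 3 windows, 2 of which overlap and share their single match. The windows of Nfkbie, Rela and Nfkbib held no match, which says only that these letters are not in those windows. Fewer letters fixed, as GGGNNNNNCC, gave a match in 50.8% of all windows and in 6 of the 7 genes. Nfkbie, with its first match at -106, and Rela are among these 6. The 4 windows shown are a choice, so no relation of motif to direction is read from them.

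Opa1 itself checks the labels of the siRNA, but not those of the plasmid. It had 33.9 ± 0.722 CPM in V465F cells, 32.0 ± 4.28 in V560F cells, 31.4 ± 2.27 in WT OPA1 cells and 36.8 ± 2.52 in knockdown cells, against 95.8 ± 4.94 in control cells (CPM are counts scaled to library size by TMM, mean ± SD, n = 3 each). In knockdown cells it fell 2.60-fold against control cells (log2 -1.38 ± 0.083 SE, edgeR adjusted p = 8.53e-10). The means of the groups given an OPA1 plasmid were not above that of knockdown cells. These counts therefore do not show which plasmid a group received, or that its insert was expressed. Library totals ran between 20070123 and 27809960 counts. The sympathetic neuroblast markers Hand2, Gata3, Gata2, Isl1, Th and Dbh each reached a mean of 1 FPKM and Ddc did not, and 1 FPKM was reached by 0 of 8 markers for microglia and macrophages, 0 of 6 for fibroblasts and 1 of 4, Pecam1, for endothelium. The summed level of the microglia and macrophage list was at most 1.28 FPKM in any library. Libraries also differed in how counts followed gene length, with a slope of log2 CPM per 10-fold of length between -0.30 and -0.22 in V465F cells, between -0.82 and -0.31 in V560F cells, between -0.068 and 0.22 in WT OPA1 cells, between 0.20 and 0.22 in knockdown cells and between 0.32 and 0.51 in control cells. Libraries V560F 2 and WT OPA1 3 stood apart from the others of their group in this slope. Results are therefore also given after removal of the length trend, and without these 2 libraries where that ended a call.

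**Figure D1:**
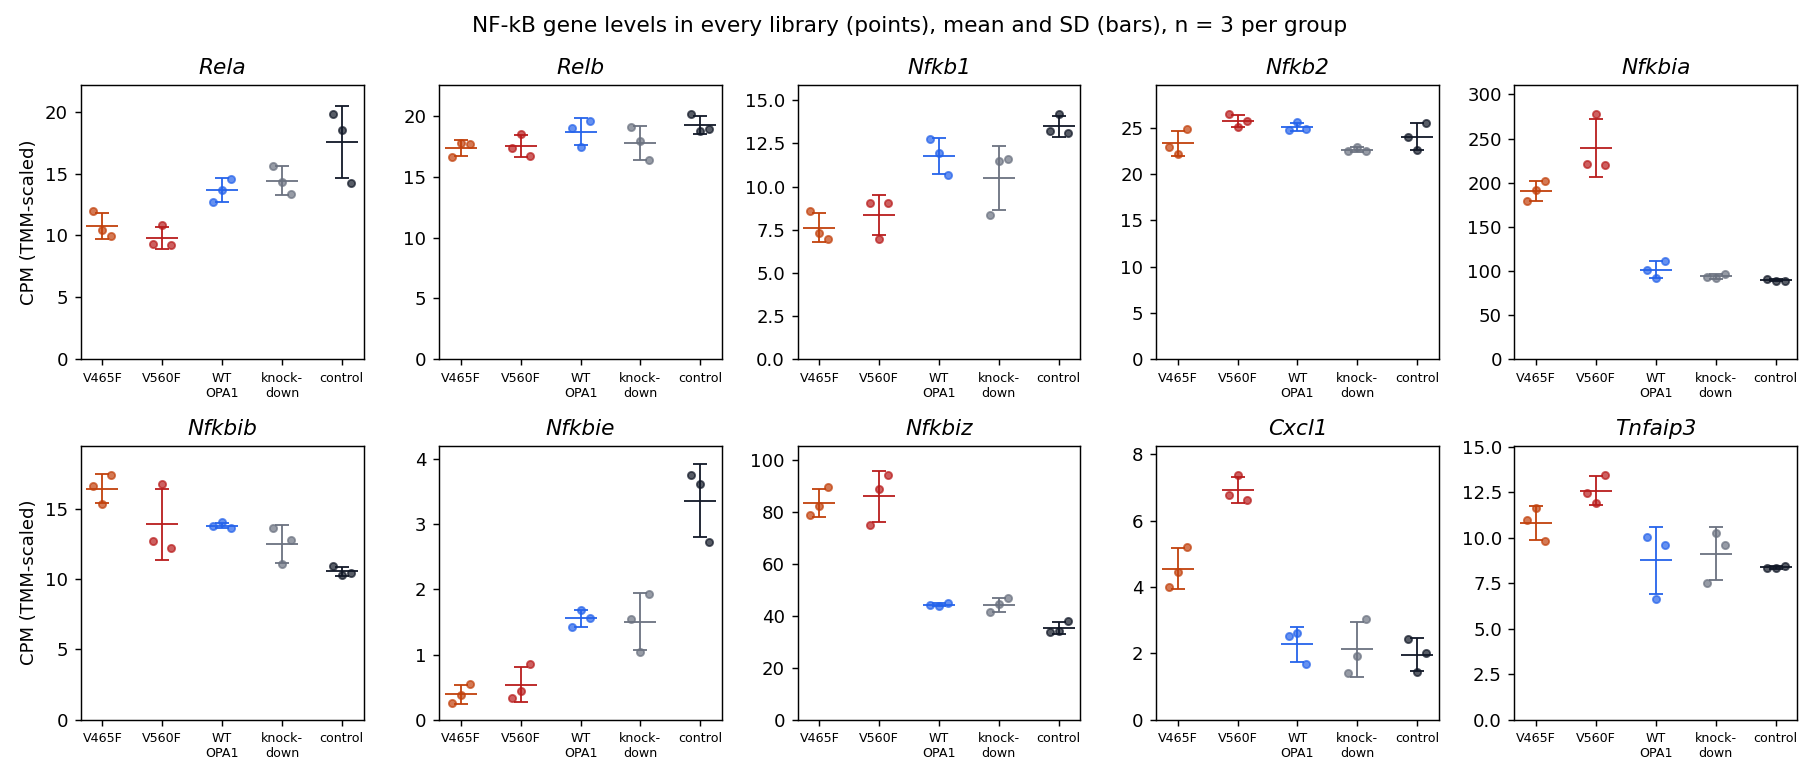
CPM (TMM-scaled, linear axes from 0) of the 10 genes in each of the 15 libraries, with the mean and SD of the 3 libraries of a group. Nfkbia, Nfkbiz and Cxcl1 are higher, and Nfkbie and Rela lower, in both mutants than in every WT OPA1 library.

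Of the inhibitors, Nfkbia and Nfkbiz were higher and Nfkbie lower in both mutants than in WT OPA1 cells. Nfkbia encodes IkBa, the inhibitor that is degraded and made again in each round of activation. It had 179, 192 and 202 CPM in V465F cells and 221, 278 and 219.9 CPM in V560F cells, against 101, 91.6 and 111 CPM in WT OPA1 cells. Knockdown cells had 93.0, 91.5 and 96.7 CPM and control cells 90.9, 88.2 and 88.9 CPM. Every mutant library lay above every library of the other groups, and every V560F library above every V465F library. In V465F cells Nfkbia rose 1.88-fold over WT OPA1 cells (log2 fold change 0.91 ± 0.083 SE, edgeR adjusted p = 1.62e-07, by Benjamini-Hochberg over all 13074 genes). In V560F cells it was 2.36-fold higher than in WT OPA1 cells (log2 1.24 ± 0.083 SE). Without V560F 2 and WT OPA1 3, the log2 fold change was 0.99 in V465F cells and 1.20 in V560F cells. Results of V560F against WT OPA1 cells were known when the 10 genes were chosen, so for these genes that comparison is given throughout as a description with no p. In bulk RNA, more RNA per cell and more cells that make it cannot be told apart.

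Nfkbiz encodes IkBz, an atypical nuclear IkB protein that works with NF-kB at secondary response genes. It had 78.8, 82.3 and 89.5 CPM in V465F cells and 74.9, 88.8 and 94.2 CPM in V560F cells, against 44.4, 43.7 and 44.9 CPM in WT OPA1 cells. Knockdown cells had 41.3, 44.6 and 46.8 CPM and control cells 33.8, 34.1 and 38.1 CPM. The mutant libraries lay above all others, the 2 mutants overlapped, and control libraries were the lowest. Nfkbiz rose 1.89-fold in V465F cells against WT OPA1 cells (log2 0.92 ± 0.081 SE, edgeR adjusted p = 1.10e-07) and was 1.94-fold higher in V560F cells.

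Nfkbie went the other way. It encodes IkBe, an inhibitor of the classical IkB type, and was the scarcest of the 10 transcripts. V465F libraries held 5, 7 and 11 reads of it and V560F libraries 6, 8 and 15, against 35, 50 and 42 reads in WT OPA1 libraries. Knockdown libraries held 41, 27 and 47 reads and control libraries 97, 110 and 72. Its CPM were 0.392 ± 0.148 in V465F cells, 0.540 ± 0.274 in V560F cells, 1.55 ± 0.131 in WT OPA1 cells, 1.51 ± 0.442 in knockdown cells and 3.36 ± 0.560 in control cells (SD, n = 3 each). The levels therefore formed 3 steps, with the mutants lowest, the WT OPA1 and knockdown cells between, and control cells highest, and no library of 1 step overlapped another. Nfkbie was 3.93-fold lower in V465F cells than in WT OPA1 cells (log2 -1.97 ± 0.37 SE) and 2.88-fold lower in V560F cells. It passed the filter through the groups in which it is higher, so its mutant values are given with no p, and with 5 to 15 reads in a mutant library its fold change is imprecise, with a 95% interval of -2.75 to -1.20 on the log2 scale in V465F cells.

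Nfkbib encodes IkBb, an inhibitor that is replaced more slowly than IkBa. It had 16.6, 15.3 and 17.4 CPM in V465F cells, 12.7, 16.8 and 12.2 in V560F cells and 13.7, 14.02 and 13.6 in WT OPA1 cells. Knockdown cells had 13.7, 11.0 and 12.8 CPM and control cells 10.9, 10.3 and 10.4 CPM. The V465F libraries lay above the WT OPA1 libraries and the V560F libraries overlapped both. The change did not pass the threshold in V465F cells (log2 0.25 ± 0.11 SE, edgeR adjusted p = 0.0877), and the V560F difference was 0.0097 ± 0.12 on the log2 scale. Exons of Nfkbib overlap exons of Sirt2 on the opposite strand, and whether counting used the strand is not given in the sources used here. Reads at the shared positions may have been given to either gene or to neither, so the values of Nfkbib are uncertain.

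Of the subunit genes, Rela and Nfkb1 were lower in both mutants than in WT OPA1 cells. Rela encodes p65, the subunit that carries the main activation domain of the classical dimer. It had 12.0, 10.4 and 9.99 CPM in V465F cells and 9.35, 10.8 and 9.24 CPM in V560F cells, against 12.7, 13.7 and 14.6 CPM in WT OPA1 cells. Knockdown cells had 15.7, 14.3 and 13.3 CPM and control cells 19.8, 18.6 and 14.3 CPM. All 6 mutant libraries lay below all 9 others. Rela fell 1.27-fold in V465F cells (log2 -0.34 ± 0.13 SE, edgeR adjusted p = 0.0358) and was 1.39-fold lower in V560F cells (log2 -0.48 ± 0.13 SE), both against WT OPA1 cells. The V465F call was lost on leaving out V465F 2, V465F 3, WT OPA1 2 or WT OPA1 3 (edgeR adjusted p = 0.101, 0.141, 0.0816 and 0.112), with log2 fold changes between -0.34 and -0.29, and without both V560F 2 and WT OPA1 3 (log2 -0.29, edgeR adjusted p = 0.0749).

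Nfkb1 encodes p105, the precursor of the DNA-binding subunit p50. It had 8.58, 7.30 and 6.96 CPM in V465F cells and 9.02, 6.99 and 9.01 CPM in V560F cells, against 12.7, 11.9 and 10.7 CPM in WT OPA1 cells. Knockdown cells had 8.36, 11.5 and 11.6 CPM and control cells 13.2, 14.2 and 13.1 CPM. The mutants lay below WT OPA1 cells without overlap, while 1 knockdown library, at 8.36 CPM, lay within the range of the mutants. Nfkb1 fell 1.54-fold in V465F cells (log2 -0.63 ± 0.14 SE, edgeR adjusted p = 0.00138) and was 1.41-fold lower in V560F cells (log2 -0.50 ± 0.14 SE).

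Relb and Nfkb2 encode RelB and p100, the precursor of p52, which form the dimer of the alternative pathway. Relb stayed between 16.4 and 20.2 CPM in all 15 libraries, with 17.4 ± 0.664 in V465F cells, 17.5 ± 0.917 in V560F cells and 18.7 ± 1.11 in WT OPA1 cells. Its log2 fold change against WT OPA1 cells was -0.11 in V465F cells (95% interval -0.29 to 0.081, edgeR adjusted p = 0.379) and -0.091 in V560F cells. Nfkb2 had 23.3 ± 1.40 CPM in V465F cells, 25.7 ± 0.685 in V560F cells and 25.1 ± 0.464 in WT OPA1 cells, with 22.6 ± 0.264 in knockdown cells and 24.0 ± 1.49 in control cells. The log2 fold change of Nfkb2 was -0.10 in V465F cells (95% interval -0.27 to 0.057, edgeR adjusted p = 0.306) and 0.038 in V560F cells. After removal of the length trend it was 0.017 in V465F cells (edgeR adjusted p = 0.903) and 0.27 in V560F cells, where it was then past the threshold. Nfkb2 overlaps exons of Psd on the opposite strand, and the length behind its deposited FPKM, 11300 bases, is above the 3846 bases of its longest annotated transcript in GENCODE M21, so its level is uncertain. For Relb the 2 lengths are 6167 and 3273 bases.

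The target gene Cxcl1 encodes a chemokine that draws neutrophils. It had 3.99, 4.46 and 5.22 CPM in V465F cells and 6.76, 7.37 and 6.63 CPM in V560F cells, against 2.51, 2.62 and 1.68 CPM in WT OPA1 cells. Knockdown cells had 1.40, 1.93 and 3.03 CPM and control cells 2.44, 1.44 and 2.00 CPM. The mutant libraries lay above all others, and V560F above V465F without overlap. Cxcl1 rose 2.00-fold in V465F cells (log2 1.00 ± 0.24 SE, edgeR adjusted p = 0.00275) and was 3.04-fold higher in V560F cells (log2 1.60 ± 0.24 SE), both against WT OPA1 cells. These levels rest on 79, 83 and 105 reads in V465F libraries and 123, 134 and 117 reads in V560F libraries, against 62, 78 and 45 reads in WT OPA1 libraries.

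Tnfaip3 encodes A20, a ubiquitin-editing enzyme that ends signalling to the IkB kinase. It had 11.0, 11.7 and 9.79 CPM in V465F cells and 12.4, 11.9 and 13.4 CPM in V560F cells, against 10.1, 6.66 and 9.57 CPM in WT OPA1 cells. Knockdown cells had 7.49, 10.3 and 9.57 CPM and control cells 8.32, 8.34 and 8.46 CPM. The V560F libraries lay above all others, and the V465F libraries overlapped those of WT OPA1. The log2 fold change was 0.31 ± 0.15 SE in V465F cells (edgeR adjusted p = 0.102, not past the threshold) and 0.53 ± 0.14 SE in V560F cells. After removal of the length trend the V465F value was 0.41 (edgeR adjusted p = 0.0268), and without V560F 2 and WT OPA1 3 it was 0.38 (edgeR adjusted p = 0.0423). On the FPKM scale the V560F value was 0.19 (log2(FPKM + 1)) or 0.27 (log2(FPKM + 0.1)), and it did not pass the threshold on either.

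Of the 10 genes, 3 rose (Nfkbia, Nfkbiz and Cxcl1) and 3 were called lower (Nfkbie, Nfkb1 and Rela) in V465F cells against WT OPA1 cells, 6 in all, or 5 of the other 9 genes without Nfkbie, which passed the filter only through other groups. The background is wide, since 38.2% of all 13074 genes tested were called in that comparison, 18.1% higher and 20.0% lower, at an edgeR adjusted p under 0.05. The median log2 fold change was 0.074 over the 10 genes and -0.023 over all genes. In V560F cells against WT OPA1 cells 7 of the 10 genes were past the threshold, 4 higher and 3 lower, where the background was 49.4%, 24.5% higher and 24.9% lower. Nothing is read from that count, because results of that comparison were known when the genes were chosen. In V465F cells Cxcl1, Nfkbiz and Nfkbia lay at percentiles 99.1, 98.8 and 98.7 of all log2 fold changes. Both comparisons share the 3 WT OPA1 libraries. The V465F fold changes, p-values, count and percentiles of the 10 genes are therefore not independent of the results known when the genes were chosen. They are no separate test of those results.

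**Figure D2:**
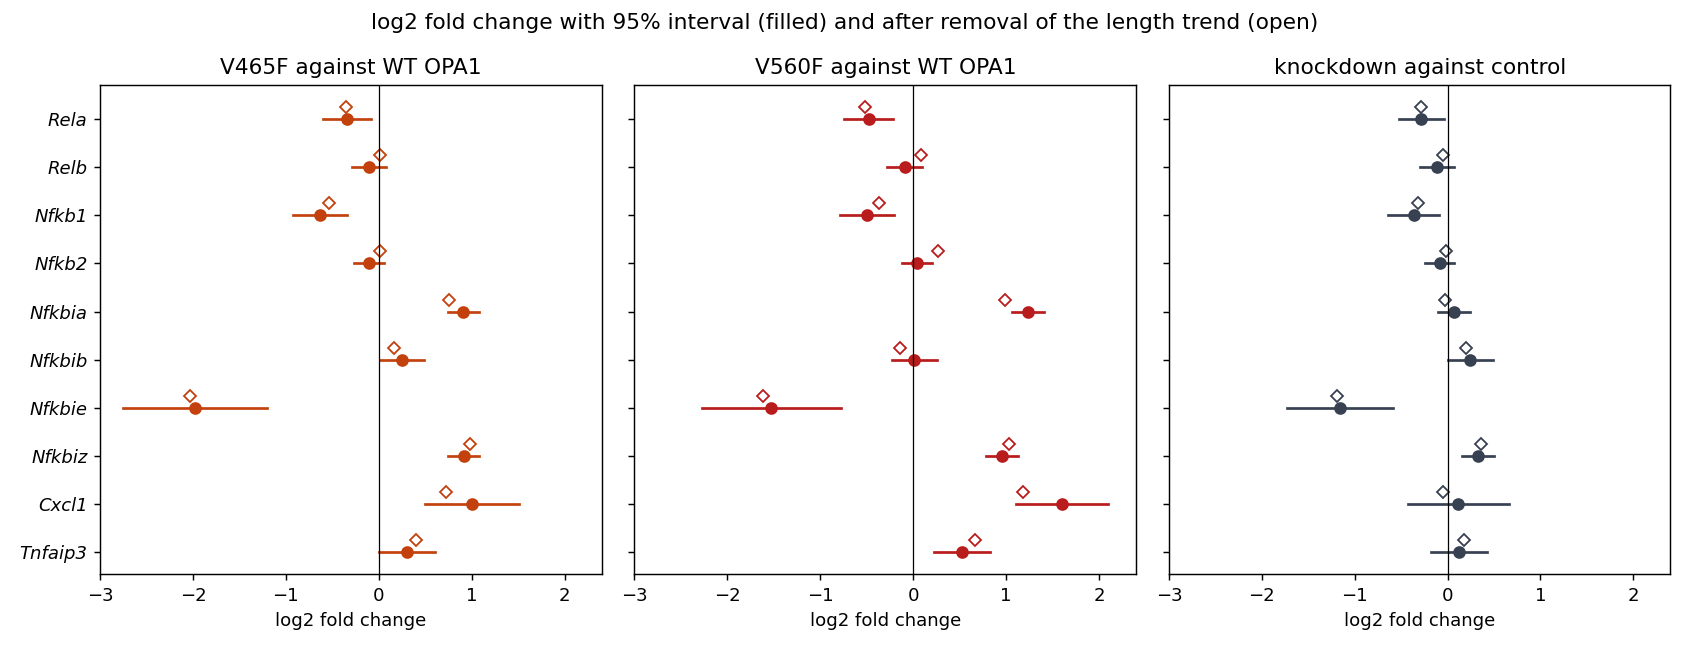
log2 fold changes of the 10 genes in V465F and V560F cells against WT OPA1 cells and in knockdown cells against control cells, with 95% intervals (filled) and after removal of the trend with gene length (open diamonds). Nfkbia, Nfkbiz and Cxcl1 lie right of 0 and Nfkbie, Nfkb1 and Rela left of 0 in both mutants, with or without the length trend.

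Removal of the length trend left the 6 calls of V465F cells in place and moved their sizes. Over all genes 18.1% were then called higher and 17.8% lower in V465F cells. Nfkbia, with a short transcript of 1579 bases, was at 0.75 in V465F cells (edgeR adjusted p = 4.50e-10) and 0.99 in V560F cells. Cxcl1, at 955 bases the shortest of the 10, was at 0.72 in V465F cells (edgeR adjusted p = 0.0196) and 1.19 in V560F cells. Nfkbiz was at 0.98 in V465F cells and 1.03 in V560F cells, Nfkbie at -2.03 and -1.62, and Rela at -0.35 and -0.51. On the deposited FPKM scale the median of all genes was shifted against TMM by -0.15 in V465F cells and -0.24 in V560F cells against WT OPA1 cells, and by -0.14 in knockdown cells against control cells. On that scale Nfkbib turned to -0.23 in V560F cells, and Relb reached -0.20 in V465F and -0.26 in V560F cells (log2(FPKM + 1), limma).

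Per length, the inhibitor transcripts summed to more FPKM than those of the subunits in every group. Nfkbiz, the atypical nuclear IkB, is counted among the inhibitors. It had 19.8 FPKM in V465F cells, 19.1 FPKM in V560F cells and 11.8 FPKM in WT OPA1 cells. The 4 inhibitor genes summed to 132, 139 and 144 FPKM in V465F cells and 149, 169 and 149 FPKM in V560F cells, against 85.2, 81.9 and 89.8 FPKM in WT OPA1 cells. Knockdown cells had 80.9 ± 1.77 FPKM and control cells 83.4 ± 1.504 FPKM (SD, n = 3 each). Nfkbia made up 80.4 ± 0.474% of that sum in V465F cells, 83.9 ± 1.59% in V560F cells and 77.5 ± 1.67% in WT OPA1 cells. The 4 subunit genes summed to 9.50 ± 0.459 FPKM in V465F cells and 8.97 ± 0.371 in V560F cells, against 13.04 ± 0.267 in WT OPA1 cells, 12.8 ± 0.534 in knockdown cells and 16.6 ± 1.43 in control cells. The subunit sum uses the long gene lengths of Nfkb2 and Relb given above, and the FPKM scale carries the shifts just given. On the TMM-scaled CPM the subunits summed to 59.1 ± 1.29 in V465F cells and 61.4 ± 0.762 in V560F cells, against 69.2 ± 0.494 in WT OPA1 cells, which is 85.4% and 88.8% of the WT OPA1 mean. The inhibitors summed to 291 ± 17.4 CPM in V465F cells and 339.98 ± 38.8 CPM in V560F cells, against 161 ± 10.3 CPM in WT OPA1 cells. On either scale both sums separated the mutants from the other groups in every library. Rel, a further subunit gene outside the 10, is not in these sums and went the other way on CPM. It had 62.7 CPM in V465F cells and 62.8 CPM in V560F cells, against 49.3 CPM in WT OPA1 cells. The lower sum therefore holds for the 4 genes summed and is not shown for all subunit transcripts. The ratio of Nfkbia to Rela was 27.2, 33.5 and 36.8 in V465F cells and 43.1, 46.6 and 43.3 in V560F cells, against 14.5, 12.2 and 13.9 in WT OPA1 cells. It was 11.9 ± 1.21 in knockdown cells and 9.44 ± 1.64 in control cells. The 10 genes were chosen with results known, so these sums and ratios carry no test.

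**Figure D3:**
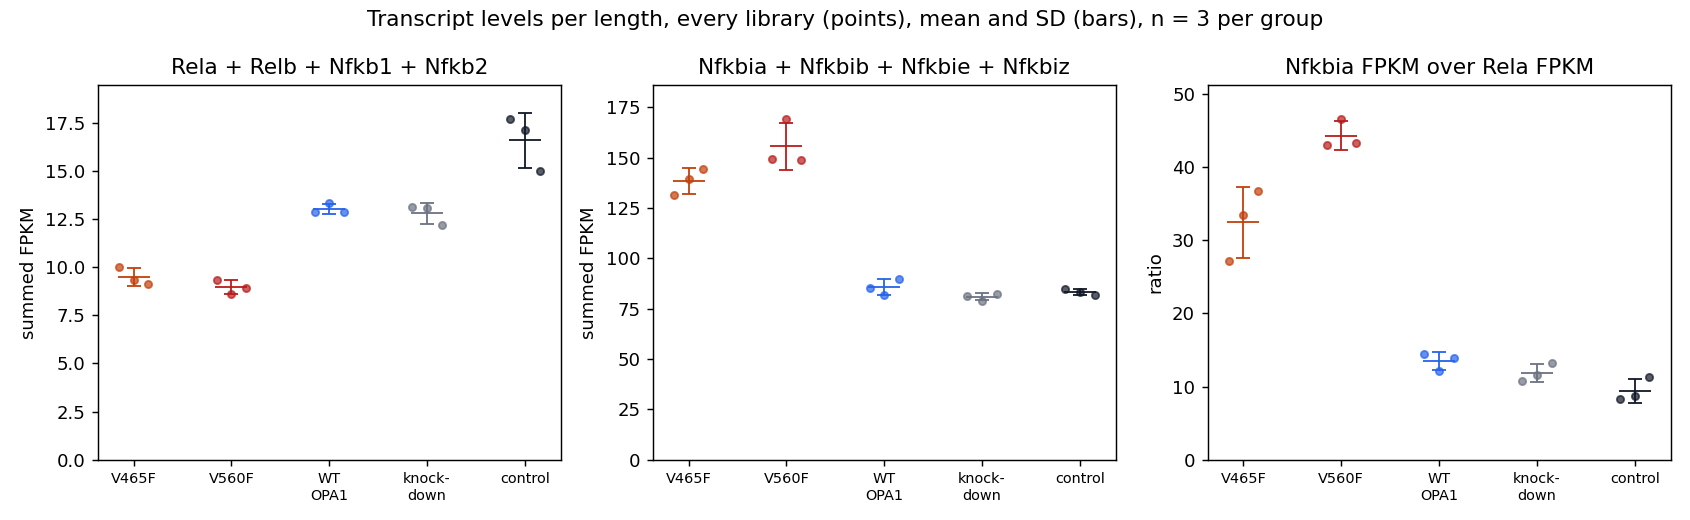
Summed FPKM of the 4 subunit genes and of the 4 inhibitor genes, and the ratio of Nfkbia to Rela FPKM, in every library, with the mean and SD of the 3 libraries of a group (linear axes from 0). The mutants lie lowest for the 4 subunit genes, which do not include Rel. They lie highest for the inhibitors and the ratio, with no library overlapping the other groups.

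Knockdown of Opa1 without an OPA1 plasmid changed 3 of the 10 genes, a share near the background. Against control cells, Nfkbie fell 2.23-fold in knockdown cells (log2 -1.16 ± 0.27 SE, edgeR adjusted p = 0.00267) and Nfkb1 1.29-fold (log2 -0.37 ± 0.13 SE, edgeR adjusted p = 0.0342). Nfkbiz rose 1.25-fold (log2 0.32 ± 0.082 SE, edgeR adjusted p = 0.00433), a call lost on the FPKM scale (log2(FPKM + 1) difference 0.16, limma adjusted p = 0.0737). These 3 calls, 1 higher and 2 lower, stand against a background of 35.9% of all genes, 19.9% higher and 16.0% lower. The median log2 fold change was -0.0083 over the 10 genes and 0.0086 over all genes. Nfkbia differed by 0.069 (95% interval -0.10 to 0.24, edgeR adjusted p = 0.543), but by -0.27 with length and level trends removed (edgeR adjusted p = 1.65e-04), Cxcl1 by 0.11 (95% interval -0.43 to 0.66) and Tnfaip3 by 0.12 (95% interval -0.18 to 0.42). The call of Nfkb1 was lost on leaving out control 1, control 2, control 3 or knockdown 1 (edgeR adjusted p = 0.0602, 0.116, 0.0551 and 0.207). Rela missed the threshold (log2 -0.28 ± 0.12 SE, edgeR adjusted p = 0.0664) and passed it without control 3 (log2 -0.41, edgeR adjusted p = 0.0112), after removal of the length trend (log2 -0.28, edgeR adjusted p = 0.0458), with only the 6 libraries compared (edgeR adjusted p = 0.0222), without V560F 2 and WT OPA1 3 (edgeR adjusted p = 0.0323) and on the FPKM scale (log2(FPKM + 1) difference -0.36, limma adjusted p = 0.0171).

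Cells given the plasmid for unmutated OPA1 had no call among the 10 genes against knockdown cells. Expression of the insert is not shown by the Opa1 counts. In WT OPA1 cells against knockdown cells, 0 of the 10 genes passed an edgeR adjusted p of 0.05, and 0 had an unadjusted p under 0.05. The background was 0%, with 1157 genes at an unadjusted p under 0.05 in edgeR and 5 genes called by DESeq2. The log2 fold changes of the 10 genes lay between -0.079 and 0.17, with a median of 0.088 against 0.00082 over all genes. For Nfkbia the 95% interval of the log2 fold change was -0.059 to 0.28, for Nfkbiz -0.17 to 0.17 and for Nfkbie -0.55 to 0.66.

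The mutants were also set against knockdown cells, which have the siRNA but no OPA1 plasmid. These comparisons share their mutant libraries with those above, and since high levels in V560F libraries were known when the genes were chosen, V560F values are again given with no p. In V465F cells 4 of the 10 genes rose (Nfkbia, Nfkbiz, Cxcl1 and Nfkbib) and 3 were called lower (Nfkbie, Nfkb1 and Rela) at an edgeR adjusted p under 0.05. These 7 include Nfkbie, which passed the filter only through other groups, so nothing is read from its call. The background was 46.0%, 21.9% higher and 24.1% lower. Nfkbia was 2.04-fold higher (log2 1.03 ± 0.083 SE, edgeR adjusted p = 2.02e-08) and Nfkbie 3.79-fold lower (log2 -1.92 ± 0.38 SE). The call of Nfkbib (log2 0.40, edgeR adjusted p = 0.00789) was lost without knockdown 2 (edgeR adjusted p = 0.0564) and on the FPKM scale (log2(FPKM + 1) difference 0.19, limma adjusted p = 0.0915). That of Nfkb1 (log2 -0.46, edgeR adjusted p = 0.0110) was lost without knockdown 2, knockdown 3 or V465F 3 (edgeR adjusted p = 0.0577, 0.0587 and 0.0577). In V560F cells 4 genes were past the threshold and higher (Nfkbia, Nfkbiz, Cxcl1 and Tnfaip3) and 2 lower (Nfkbie and Rela), 6 in all, where the background was 53.8%, 26.3% higher and 27.6% lower, and nothing is read from that count. Cxcl1 was 3.28-fold higher (log2 1.71 ± 0.24 SE). Tnfaip3 was 1.38-fold higher (log2 0.47), and by 0.13 on log2(FPKM + 1) and 0.19 on log2(FPKM + 0.1). Tnfaip3 did not pass the threshold on either FPKM scale, nor without knockdown 1 (log2 0.34). Nfkb2 was at log2 0.19, at 0.48 after removal of the length trend, and at -0.061 on log2(FPKM + 1). Over the 10 genes the median log2 fold change was 0.14 in V465F cells and 0.17 in V560F cells, against -0.025 and -0.030 over all genes.

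Between the mutants no gene of the 10 was called. High levels in V560F libraries were known when the genes were chosen, and such a choice favours genes that are lower in V465F cells. For the 10 genes this comparison is therefore a description given with no p. In V465F cells against V560F cells, 0 of the 10 genes passed the threshold in edgeR, where the background was 0.00765%, a single gene that was lower in V465F cells (0.00765% lower). At an unadjusted p under 0.05 there were 2 of the 10 genes, Nfkbia and Cxcl1, and 2373 of all genes, and nothing is read from that count. Nfkbia had 191 ± 11.6 CPM in V465F cells and 239.6 ± 32.9 CPM in V560F cells, a log2 fold change of -0.33 (95% interval -0.50 to -0.16). It was the 1 gene of the 10 that DESeq2 called, and edgeR called it without V560F 1 (log2 -0.38). Cxcl1 differed by -0.60 (95% interval -1.08 to -0.13), Nfkbiz by -0.042 (95% interval -0.21 to 0.12) and Nfkbie by -0.45 (95% interval -1.41 to 0.51). Nfkbia, Cxcl1, Nfkb2 and Tnfaip3 were lower in every V465F library than in every V560F library. The share of all genes that separate in this way is not given here, so nothing is read from that list. The median log2 fold change was -0.14 over the 10 genes and -0.016 over all genes.

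Across the 15 libraries, the log2 CPM of Nfkbia went with those of Nfkbiz (Pearson r = 0.959), Cxcl1 (0.920) and Tnfaip3 (0.799), and opposite to those of Nfkbie (-0.853), Rela (-0.850) and Nfkb1 (-0.831). The points share the 5 groups and the differences in length slope, so these values are descriptions. Among 10146 tested genes with a mean of at least 1 FPKM, the 5 whose pattern was most like that of Nfkbia were Irf1 (r = 0.989), Hnrnpa2b1 (0.984), H1f2 (0.984), Tpm4 (0.983) and Tcf25 (0.983). Irf1, an interferon regulatory factor that NF-kB is known to induce, had 38.6 CPM in V465F cells and 46.0 CPM in V560F cells, against 24.99 CPM in WT OPA1 cells, 24.9 in knockdown cells and 23.3 in control cells. H1f2, a linker histone gene, had 61.4 CPM in V465F cells and 78.5 CPM in V560F cells, against 27.6 CPM in WT OPA1 cells.

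The rest of the pathway was read from 6 lists of genes. The lists were made with earlier results of these data known. The p-values of their genes, those of V560F against WT OPA1 cells above all, are therefore descriptions, and nothing is concluded from them. Upstream, none of 17 receptor and adaptor genes rose and 7 fell in V560F cells against WT OPA1 cells, and 1 rose and 5 fell in V465F cells. Over all genes 24.5% rose and 24.9% fell in V560F cells, 18.1% rose and 20.0% fell in V465F cells, and 19.9% rose and 16.0% fell in knockdown cells against control cells. These shares, and the medians over all genes given next, are the background of all 6 lists. After removal of the length trend 2 of the 17 rose and 5 fell in V465F cells, and 0 rose and 9 fell in V560F cells. The list's median log2 fold change was -0.28 in V465F cells and -0.30 in V560F cells, against -0.023 and -0.025 over all genes. In knockdown cells against control cells it was -0.11, against 0.0086 over all genes. Traf6, the ubiquitin ligase that relays signals of interleukin-1 and Toll-like receptors, had 11.0 ± 1.36 CPM in V465F cells and 10.9 ± 1.92 CPM in V560F cells, against 20.6 ± 3.56 CPM in WT OPA1 cells. It fell 1.88-fold in V465F cells (edgeR adjusted p = 2.09e-05) and 1.88-fold in V560F cells (edgeR adjusted p = 7.91e-06). Traf3, an adaptor that restrains the alternative pathway, fell 1.39-fold in V465F cells (edgeR adjusted p = 0.00106) and 1.57-fold in V560F cells (edgeR adjusted p = 2.74e-05). The receptor gene Tlr4 fell 2.49-fold in V560F cells (edgeR adjusted p = 0.00103), and Cd40 rose 1.498-fold in V465F cells (edgeR adjusted p = 0.00341). In knockdown cells against control cells 0 genes of this list rose and 3 fell, among them the death domain adaptor Fadd, with 2.20 ± 0.615 CPM in knockdown cells and 4.97 ± 1.39 CPM in control cells (edgeR adjusted p = 0.00126). Fadd shares exon positions with Faddos on the opposite strand, so its reads are uncertain.

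Of 11 kinase genes, 1 rose and 5 fell in V465F cells and 1 rose and 7 fell in V560F cells, both against WT OPA1 cells, where 20.0% and 24.9% of all genes fell. With the length trend removed 1 rose and 2 fell in V465F cells, and 2 rose and 4 fell in V560F cells, so the count of lower kinase genes depends on that trend. Map3k7, the kinase TAK1, lost its call in both mutants (edgeR adjusted p = 0.0793 in V465F cells and 0.0737 in V560F cells), and Tab3, another TAK1 adaptor, in V465F cells (edgeR adjusted p = 0.0619). The median log2 fold change was -0.18 in V465F cells, -0.26 in V560F cells and 0.029 in knockdown cells against control cells. Tab2, an adaptor of the kinase TAK1, had 213 ± 14.8 CPM in V465F cells and 205 ± 21.6 CPM in V560F cells, against 273 ± 1.72 CPM in WT OPA1 cells (edgeR adjusted p = 4.17e-04 in V465F cells and 4.37e-05 in V560F cells). Its log2 fold change was -0.36 in V465F cells and -0.42 in V560F cells, and -0.24 and -0.19 after removal of the length trend. Ikbkb, the catalytic kinase of the classical pathway, had 24.3 ± 3.46 CPM in V560F cells and 31.6 ± 2.82 CPM in WT OPA1 cells (edgeR adjusted p = 0.00352). Chuk, the kinase subunit IKKa, rose 1.21-fold in V465F cells (log2 0.28, edgeR adjusted p = 0.00346), but not on the FPKM scale (log2 0.10, limma adjusted p = 0.245). In knockdown cells against control cells 0 kinase genes rose and 2 fell. Ikbkg, the regulatory subunit NEMO, had 22.0 ± 1.31 CPM in knockdown cells and 32.2 ± 1.85 CPM in control cells (edgeR adjusted p = 6.49e-05), with exons that overlap G6pdx on the opposite strand.

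Ubiquitin regulators were called in both directions across the comparisons. Of 16 genes 0 rose and 4 fell in V465F cells, 3 rose and 3 fell in V560F cells, and 5 rose and 1 fell in knockdown cells against control cells. The shares over all genes were 18.1% higher and 20.0% lower, 24.5% and 24.9%, and 19.9% and 16.0%. With the length trend removed 1 rose and 1 fell in V465F cells and 2 rose and 1 fell in V560F cells. Their medians were -0.086, -0.055 and 0.074 on the log2 scale in these 3 comparisons. Itch, a ligase that works with A20, had 32.9 ± 1.66 CPM in V465F cells and 31.2 ± 2.60 CPM in V560F cells, against 40.0 ± 2.55 CPM in WT OPA1 cells (edgeR adjusted p = 0.00560 in V465F cells and 5.06e-04 in V560F cells). The calls of Cyld, a deubiquitinase that opposes the pathway, and of Btrc, which marks phosphorylated IkB for degradation, were lost in both mutants after removal of the length trend (log2 -0.14 and -0.30 in V465F cells, -0.096 and -0.15 in V560F cells). That of Fbxw11, a paralogue of Btrc, was lost in V465F cells (log2 -0.070, edgeR adjusted p = 0.329). The V465F call of Cyld was also lost on leaving out WT OPA1 1, WT OPA1 2, V465F 1 or V465F 3 (edgeR adjusted p = 0.0505, 0.0608, 0.0585 and 0.0991). Birc3, a ligase of the TNF receptor complex, fell 2.34-fold in knockdown cells, with 1.16 ± 0.336 CPM in knockdown cells and 2.71 ± 0.300 CPM in control cells (edgeR adjusted p = 0.00677).

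Of the 3 other Rel and IkB family genes tested, 1 rose in V465F cells, all 3 rose in V560F cells and 1 rose in knockdown cells against control cells. Over all genes 18.1%, 24.5% and 19.9% rose. Of the V560F calls, that of Nfkbil1 was lost after removal of the length trend (log2 0.068, edgeR adjusted p = 0.561) and that of Nfkbid without V560F 2 and WT OPA1 3 (log2 0.61, edgeR adjusted p = 0.109). Their median log2 fold changes were 0.35, 0.35 and 0.12. Rel, the subunit c-Rel, had 62.7 ± 0.278 CPM in V465F cells and 62.8 ± 11.0 CPM in V560F cells, against 49.3 ± 2.06 CPM in WT OPA1 cells (edgeR adjusted p = 0.00633 in V465F cells and 0.00432 in V560F cells). On the FPKM scale Rel did not pass (log2 0.16 in V465F cells and 0.068 in V560F cells, limma adjusted p = 0.246 and 0.602), and the V560F call was lost without V560F 3 (log2 0.21, edgeR adjusted p = 0.0579). In knockdown cells the call of Rel (log2 0.34, edgeR adjusted p = 0.00860) was lost without control 1 (log2 0.27, edgeR adjusted p = 0.0577).

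Other target genes were called in both directions. Of 23 chemokine, cytokine and adhesion genes listed, 18 are in the table and 9 passed the filter. In V465F cells 2 of the 9 rose and 1 fell, in V560F cells 3 rose and 2 fell, and in knockdown cells against control cells 0 rose and 2 fell. Over all genes 18.1% rose in V465F cells and 24.5% in V560F cells. Once the length trend was removed 0 of the 9 rose in V465F cells and 1 rose in V560F cells. The cytokine gene Il6 lost its V465F call (log2 0.24, edgeR adjusted p = 0.250) and the chemokine gene Ccl5 its V560F call (log2 0.92, edgeR adjusted p = 0.169). The medians over the 9 genes were -0.062, -0.12 and -0.052 on the log2 scale. Cxcl10, a chemokine also induced by interferon, had 8.54 ± 0.890 CPM in V465F cells and 9.29 ± 0.865 CPM in V560F cells, against 5.40 ± 1.17 CPM in WT OPA1 cells (edgeR adjusted p = 0.00408 in V465F cells and 6.15e-04 in V560F cells). After removal of the length trend its V465F call was lost (log2 0.41, edgeR adjusted p = 0.0595), and with length and GC removed so was its V560F call (log2 0.38, edgeR adjusted p = 0.0669). Cxcl10 overlaps Art3 on the opposite strand. Csf1, a growth factor of macrophages, fell 1.63-fold in V465F cells, 1.59-fold in V560F cells and 1.62-fold in knockdown cells against control cells (edgeR adjusted p = 0.00176, 0.00187 and 0.00111). With length and level trends removed, the V560F call of Csf1 was lost (log2 -0.40, edgeR adjusted p = 0.0521). Cd83, an activation marker of immune cells, fell 2.15-fold in V560F cells (edgeR adjusted p = 0.00344).

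Of 16 feedback and survival targets tested, 5 rose and 4 fell in V465F cells, 7 rose and 4 fell in V560F cells, and 4 rose and 2 fell in knockdown cells against control cells. Birc3 is in this list and in that of the ubiquitin regulators, so its fall in knockdown cells is counted in both. Over all genes 18.1% rose and 20.0% fell in V465F cells, and 24.5% rose and 24.9% fell in V560F cells. With that trend removed 5 rose and 4 fell in V465F cells, and 6 rose and 3 fell in V560F cells. The list's median log2 fold change was 0.029 in V465F cells, 0.0034 in V560F cells and 0.10 in knockdown cells against control cells. Irf1 rose 1.54-fold in V465F cells (edgeR adjusted p = 3.26e-06) and was 1.84-fold higher in V560F cells, a value known when the lists were made and given with no p. Irf1 overlaps Gm17334 on the opposite strand. Gadd45b, a stress gene that opposes JNK signalling, had 45.4 ± 5.38 CPM in V465F cells and 57.8 ± 10.6 CPM in V560F cells, against 26.5 ± 1.68 CPM in WT OPA1 cells (edgeR adjusted p = 1.46e-05 in V465F cells and 9.92e-08 in V560F cells). It also rose 1.41-fold in knockdown cells against control cells (edgeR adjusted p = 0.00208). Sod2, the manganese superoxide dismutase of mitochondria, rose 1.24-fold in V465F cells and 1.36-fold in V560F cells (edgeR adjusted p = 0.00108 and 1.19e-05), and the immediate early gene Ier2 rose 1.32-fold and 1.73-fold (edgeR adjusted p = 0.00336 and 2.04e-06).

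**Figure D4:**
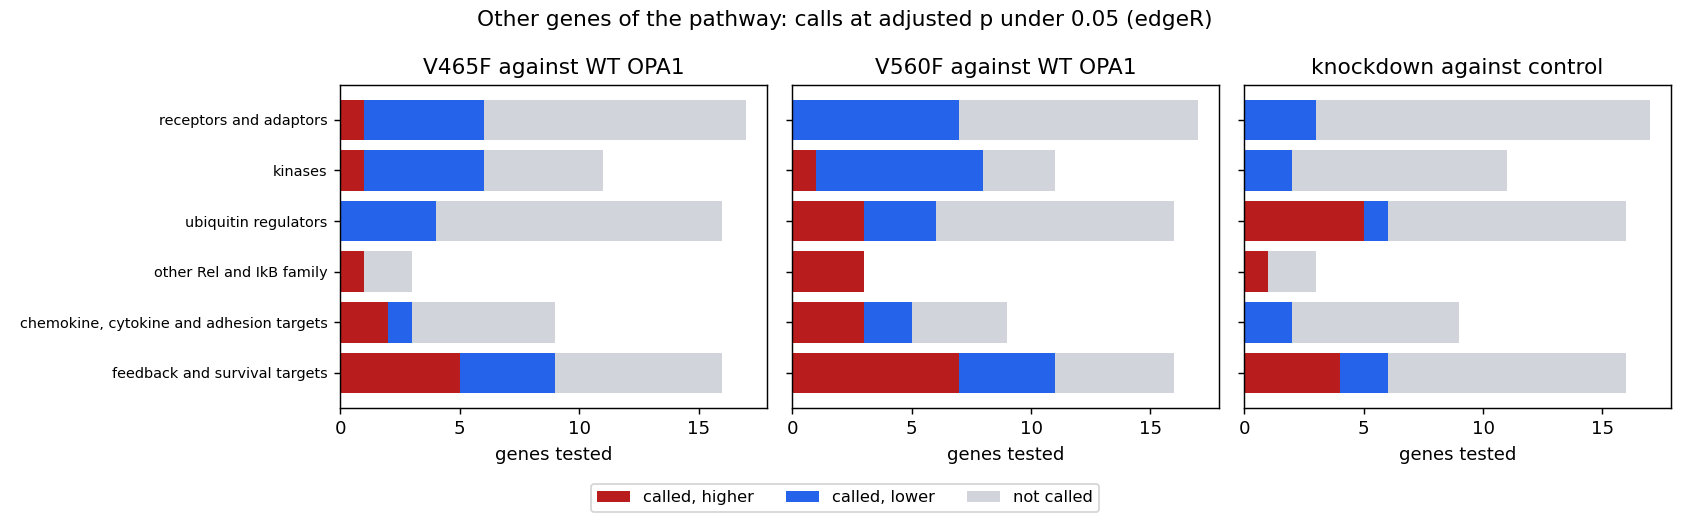
Numbers of genes tested in the 6 lists of other pathway genes and how many were called higher or lower (edgeR adjusted p under 0.05) in V465F and V560F cells against WT OPA1 cells and in knockdown cells against control cells. Birc3 is counted both among the ubiquitin regulators and among the feedback and survival targets. Receptor, adaptor and kinase genes show 5 lower and 1 higher each in V465F cells, where 20.0% of all genes were lower. Once the length trend is removed, 2 kinase genes are lower, where 17.8% of all genes were lower.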

How the data were processed

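RNA of 15 libraries of N2a cells was analysed. Per the submitters' processing notes the authors used fastp, HISAT2, HTSeq and R 3.2.0 with GRCm39. Whether counting used the strand is not given in the sources used here. The deposited read counts are whole numbers per gene, and the deposited FPKM values are those counts scaled by library and gene length. The 10 genes, the 6 pathway lists and the contrasts were chosen with earlier results of these data known. Here, counts were tested with edgeR 4.0.16 (R 4.3.3): filterByExpr, TMM, and a quasi-likelihood fit on all 15 libraries with 10 residual degrees of freedom, for 7 comparisons, with Benjamini-Hochberg adjustment over 13074 genes and a threshold of 0.05. The median SE of a log2 fold change was 0.107. Intervals are 95%. The pipeline was tested on simulated data. FPKM served for levels per length and, as log2(FPKM + 1) or log2(FPKM + 0.1), for limma 3.58.1. Trends with length, GC and level were removed by splines (5 degrees of freedom); GC was known for 94.3% of genes. DESeq2 1.42.0, its size factors in edgeR, no filter, only the 6 libraries compared, a replicate block and leaving out each library were other alternatives. Leaving out V560F 2 and WT OPA1 3 together, and the length corrections with GC or level, were chosen after seeing the data. Library pairs within groups differed by 2.96 to 28.4 times sampling noise (chi-square per degree of freedom), so none was counted as a repeat. Genes named beside the 10 are Opa1, up to 4 called genes of each list and comparison, taken by smallest adjusted p and not all described (2 where none was called), and the 5 genes most like Nfkbia. No amino acid sequence was used here. Some neuroblast markers are not reported here.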

Additional observations from a re-analysis of the deposited data

How the results depend on the processing

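Over the 70 log2 fold changes of the 10 genes in 7 comparisons, 1177 alternative values kept their call or stayed without one. A further 50 became calls, 27 lost a call and 4 reversed with a call before or after. Values without a call before and after were not checked for direction and count among the 1177. Nfkbia in knockdown cells against control cells, at 0.069, was for example at -0.075 on log2(FPKM + 1). The reversed ones were Nfkbia in knockdown cells against control cells (-0.27, length and level trend removed), Nfkbib in V560F against WT OPA1 cells (-0.23 on log2(FPKM + 1) and -0.26 on log2(FPKM + 0.1)) and Relb in V560F against knockdown cells (0.25, length and level trend removed), and the cause was not tested. Nfkb1 in V560F against WT OPA1 cells had no call with length and level removed, and Nfkb2 gained one with the length trend removed (log2 0.27). In V560F against knockdown cells Nfkb2 (log2 0.19) passed the threshold under 8 alternatives, among them removal of the length trend (log2 0.48). For the other pathway genes named, 909 values held and 135 lost a call.

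Genes called in V465F against V560F cells were 1 in edgeR, 147 in DESeq2, 580 with no filter, 6 on log2(FPKM + 0.1), 0 with only the 6 libraries compared, 48 with the length trend removed, 79 with length and GC, 18 with length and level, 17 without V560F 2 and WT OPA1 3, and 0 to 818 on leaving out 1 library, 818 being without V560F 1. Among the 10 genes, 1 was called with DESeq2, with no filter, with length and GC removed and without V560F 1, and the range on leaving out 1 library was 0 to 1. In WT OPA1 against knockdown cells 5 genes were called in DESeq2, 40 with no filter, 3 with only the 6 libraries, 1 with length and level removed and 2 without V560F 2 and WT OPA1 3. DESeq2 and the fit of only the 6 libraries gave no value for Nfkbie in V465F against V560F cells.

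Replicate numbers showed no strong pairing of the libraries, and a weak pairing cannot be told from these values. Deviations of same-numbered libraries correlated between -0.18 and 0.088 in 30 pairs, none over 0.1, and 8 of 15 libraries lay closest to their own number. The replicate block added 1 call among the 10 genes, Nfkb2 in V560F against knockdown cells (log2 0.19). With it 3 genes were called in V465F against V560F cells. With block and length trend removed 298 were called there, 1 of them among the 10 genes, and 12 in WT OPA1 against knockdown cells. Depth limits Nfkbie and Cxcl1 most.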
